A study of Mus musculus with 6 samples.

Results

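The genes described here are 9 transcription factors with a basic leucine zipper (bZIP): Batf, Batf2, Batf3, Maf, Nfil3, Jun, Junb, Fos and Fosl2. They were taken by symbol, as the probe sets annotated with one of these symbols alone, and they are 9 of the 19938 genes that the array annotation names singly. Each had 1 probe set, and 8 of the 9 reached the background of 6.5 (log2) in at least 1 array and were tested. RNA came from CD4+ dendritic cells (DC) of the spleen of 6 male mice aged 6 weeks, of which 3 were Runx3-/- and 3 were wild type (WT), in 3 litters that each gave a mouse of both genotypes. Runx3-/- mice lack this RUNX family transcription factor in every cell from the germ line on, so the loss was not limited to DC, and the WT littermates carried it intact. Magnetic beads enriched the cells before sorting, which took CD11c+ MHCII+ cells by their CD4 and CD8 staining. Esam is named in the labels, with no word on how it was gated. Values are log2 signals, and a log2 change is Runx3-/- minus WT.

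A bZIP protein binds DNA only as a dimer: the zippers of a pair of proteins coil around each other and the basic ends grip the DNA. Fos and Jun proteins form activator protein 1 (AP-1), which many cells switch on within minutes of stress or receptor signals. Batf proteins lack the activation domains of Fos, pair with Jun proteins and act at composite sites with the interferon regulatory factors Irf4 and Irf8. In the mouse, Batf3 is known as a factor required by the CD8+ DC lineage, and Maf, a large Maf protein with its own long recognition element, is known for its roles in macrophages and in helper T cells. Nfil3 is a repressor that CD8+ DC, natural killer cells and other innate lymphoid cells need for their development.

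Promoters of 7 of the 9 factors were matched by gene in the RefSeq table of build GRCm38.p6, and Maf and Batf2 were not among them. The 250 bases before the gene start were searched on both strands for the letters of a RUNX site (TGTGGT), an AP-1 site (TGANTCA) and the core of a cyclic AMP response element (TGACGT), none of which overlaps another here. Of 32851 promoters of this length in the table, 14% held the RUNX letters, 6.75% the AP-1 letters and 6.47% the core letters. The sequences of Batf, Fos and Batf3 are shown with these letters in capitals, the first pair because they alone among the 7 held a match and lie close together on chromosome 12, and Batf3 because its values in both genotypes did not overlap.
Batf, chr12:85686470-85686719, plus strand: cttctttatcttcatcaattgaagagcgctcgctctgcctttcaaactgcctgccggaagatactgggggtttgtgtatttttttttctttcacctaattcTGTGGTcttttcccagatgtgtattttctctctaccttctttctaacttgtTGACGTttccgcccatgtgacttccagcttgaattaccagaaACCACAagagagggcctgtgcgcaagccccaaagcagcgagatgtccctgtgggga
Fos, chr12:85473640-85473889, plus strand: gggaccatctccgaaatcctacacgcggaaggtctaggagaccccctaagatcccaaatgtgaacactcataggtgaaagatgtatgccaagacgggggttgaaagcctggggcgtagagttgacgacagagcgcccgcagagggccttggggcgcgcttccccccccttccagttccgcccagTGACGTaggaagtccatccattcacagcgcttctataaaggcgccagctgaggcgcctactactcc
Batf3, chr1:191098164-191098413, plus strand: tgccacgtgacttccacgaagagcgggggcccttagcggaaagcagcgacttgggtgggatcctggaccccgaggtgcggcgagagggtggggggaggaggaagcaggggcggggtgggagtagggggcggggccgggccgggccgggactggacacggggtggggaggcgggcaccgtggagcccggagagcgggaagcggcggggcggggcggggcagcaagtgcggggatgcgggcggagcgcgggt
The Batf window held the RUNX letters on the same strand, with the match starting 149 bases before the gene start, and on the opposite strand (ACCACA) at 56 bases, and the core letters at 98 bases. The Fos window held the core letters at 66 bases. The windows of Batf3, Nfil3, Jun, Junb and Fosl2 held none of these letters. Such a match describes the sequence and does not show that a factor binds there.

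The 6 arrays were alike in level, with median log2 values of 6.57 to 6.65 and 50.7% to 51.3% of probe sets at or above background. Runx3 RNA was lower in all 3 Runx3-/- arrays, with a log2 change of -1.98 (limma, adjusted p = 0.0027). All 9 markers fixed for CD4+ DC were above background in every array, and their mean per array was 11.89 to 12.03 in Runx3-/- and 11.90 to 12.02 in WT arrays. Single markers differed in both directions, and 0 passed the adjusted threshold (limma). Without overlap, 2 were higher in Runx3-/- DC (Itgam and Sirpa) and 3 lower (Zbtb46, Flt3 and Itgax). That is 55.6% of the 9, against 28.5% of all tested genes. Of 19149 probe sets tested, 298 passed an adjusted p of 0.05, which is 1.56%, with 0.856% higher and 0.7% lower in Runx3-/- DC. The 3 values of one genotype lay clear of the 3 of the other for 22.4% of tested probe sets, 7.48% higher and 14.9% lower. Each array was of a separate mouse.

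Among the 8 tested factors, Maf rose in Runx3-/- DC and none of the other 7 passed the adjusted threshold in either direction. The fit held genotype alone. With the litter as a block 0 of 19149 probe sets passed, and the adjusted p of Maf was 0.0892 (limma). Both genotypes were fully apart for Maf, which was higher, and for Batf3, which was lower. So 2 of 8 did not overlap, which is 25%, against 28.5% of all tested genes. At an unadjusted p of 0.05, which 15.9% of all probe sets met, the same 2 of 8 passed. Of all 9922 tested genes, 753 met it with a higher and 1175 with a lower value in Runx3-/- DC. The log2 changes of the 8 ran from -0.47 to 1.46 with a median of 0.20, 5 positive and 3 negative, beside a median of -0.03 over all 9922 tested genes. Nfil3, one of the 5 positive, met the background filter through Runx3-/- 1 alone, in the group where it was higher. The wide panels in the plot of the 9 factors are those of Fos and Jun, whose WT values were spread far more than those of Batf or Maf.

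**Figure D1:**
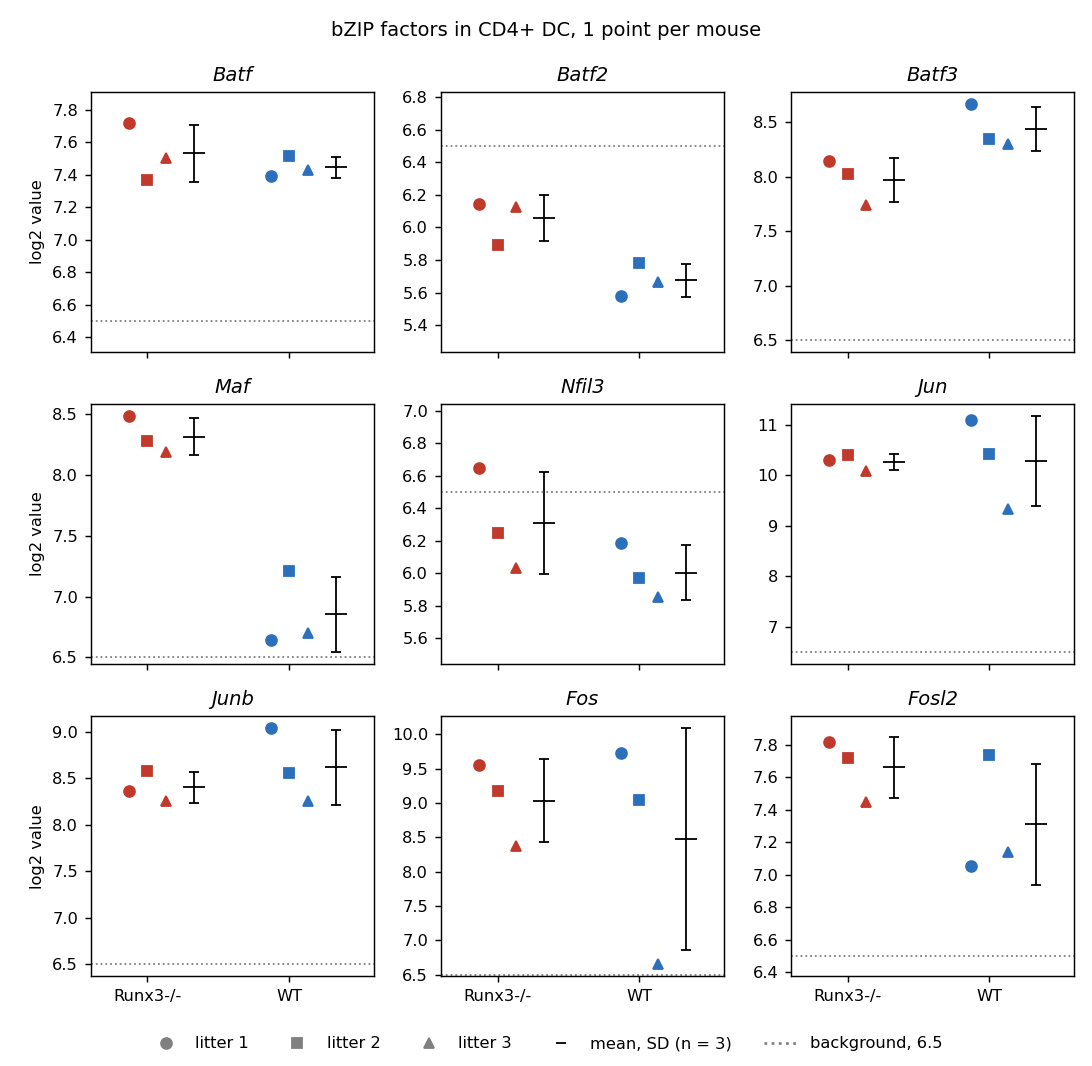
Log2 signal of the 9 bZIP factors in each mouse (red, Runx3-/-; blue, WT; the symbol gives the litter), with the mean and SD of 3 mice and a dotted line at the background of 6.5; each panel has its own axis. Maf stands higher in all 3 Runx3-/- mice, Batf3 lower in all 3, and WT 3 lies far below the other WT mice for Fos.

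The Batf family was measured first. Batf (probe set 10397359), the founding member and a partner of Jun in lymphocytes, had values of 7.72, 7.37 and 7.50 in Runx3-/- litters 1, 2 and 3, against 7.39, 7.51 and 7.43 in WT. The genotypes overlapped, with the highest value in Runx3-/- 1 and the lowest in Runx3-/- 2. The mean was 7.53 ± 0.18 in Runx3-/- and 7.44 ± 0.06 in WT DC (SD, n = 3 each). The log2 change of 0.09 (SE 0.11) had a 95% interval of -0.17 to 0.34 and did not pass (limma, adjusted p = 0.745). It was the most even of the 8 factors in WT mice, where 75.8% of tested probe sets had an SD at least as large.

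Batf3 (probe set 10352717) had the most negative change of the 8 without passing the threshold. Its values were 8.14, 8.02 and 7.74 in Runx3-/- arrays, against 8.67, 8.35 and 8.30 in WT arrays. Every Runx3-/- value lay below every WT value. Means were 7.97 ± 0.21 in Runx3-/- and 8.44 ± 0.20 in WT DC (SD, n = 3 each), a ratio of 1.39. The log2 change was -0.47 (SE 0.15, 95% interval -0.82 to -0.12). It did not pass after adjustment (limma, adjusted p = 0.199), and with the litter as a block the adjusted p was 0.124. Within litters the difference was -0.53, -0.32 and -0.56, lower in 3 of 3 Runx3-/- mice. Over 14 alternative settings the log2 change stayed between -0.56 and -0.36, none with an adjusted p under 0.05 (0.124 to 0.479).

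Batf2 (probe set 10460767), an interferon-inducible relative, was not above background in any array and was not tested. Its signals were 6.15, 5.89 and 6.13 in Runx3-/- arrays and 5.58, 5.78 and 5.66 in WT arrays. These values did not overlap, but all lay under 6.5, so no fold is given.

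Batf proteins share their composite sites with a pair of interferon regulatory factors, which moved in opposite directions. Irf8, a factor that CD8+ DC and plasmacytoid DC depend on, had values of 9.96, 9.66 and 10.47 in Runx3-/- arrays, against 8.63, 8.79 and 8.69 in WT arrays. Irf4, a factor of CD4+ DC, had values of 9.46, 9.60 and 9.79 in Runx3-/- arrays, against 10.22, 10.24 and 10.26 in WT arrays. Neither gene overlapped between genotypes. Irf8 rose by 1.33 (limma, adjusted p = 0.0418) and Irf4 fell by 0.62 (limma, adjusted p = 0.0434), whereas the interval of Batf covered 0. With the litter as a block both missed the threshold (limma, adjusted p = 0.106 for Irf8 and 0.102 for Irf4).

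Genes of the Batf3-dependent CD8+ DC were read beside Batf3. Of 14 listed genes, 11 were tested, 1 was higher and 0 lower past the threshold, and the median log2 change was 0.41, with 9 positive and 2 negative. The gene that rose was Cadm1, an adhesion molecule, with 9.39, 9.33 and 9.44 in Runx3-/- arrays, against 8.36, 8.48 and 8.35 in WT arrays, a log2 change of 0.99 (limma, adjusted p = 0.0127; 0.0744 with the litter as a block). It lay clear of WT in all 3 litters, while Batf3 itself was on the lower side. Wdfy4, a protein needed for cross-presentation by these cells in the mouse, had a log2 change of -0.49 (limma, adjusted p = 0.051), with values of 12.07, 12.16 and 11.99 in Runx3-/- and 12.65, 12.48 and 12.58 in WT arrays. Rab7b, a small GTPase of late endosomes, had a change of 0.92 and did not pass (limma, adjusted p = 0.090). All its WT values were below background, so its Runx3-/- mean was at least 1.61-fold higher. Snx22, a sorting nexin, had the most negative change of the list, -1.26 (limma, adjusted p = 0.0925), with 2 of 3 Runx3-/- arrays above background.

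Of the 6 genes fixed as CD8+ DC markers, which leave out Cadm1, 4 were tested, 4 had a positive change and 0 passed. Xcr1, their chemokine receptor, had a log2 change of 0.68 without overlap (limma, unadjusted p = 0.0096, adjusted p = 0.156). Clec9a had one of 0.61 with overlap (limma, adjusted p = 0.474), and Cd8a reached background only in Runx3-/- 3, at 6.54. Itgae and Cd207 were below background in every array. The mean of the 6 CD8+ DC markers per array was 6.77 to 7.31 in Runx3-/- and 6.67 to 6.72 in WT arrays. The mean of the 6 plasmacytoid DC markers was 8.22 to 9.49 in Runx3-/- and 7.92 to 8.04 in WT arrays, and Siglech, a receptor of plasmacytoid DC, stood at 7.46, 8.18 and 10.18 in Runx3-/- arrays, against 7.45, 7.40 and 7.43 in WT arrays. Runx3-/- 3 was the highest array for Siglech and Irf8 and the lowest for Batf3, and the part of such cells in these values was not tested.

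Maf (probe set 10581992) was the one factor that rose. Its values were 8.49, 8.28 and 8.19 in Runx3-/- arrays, against 6.65, 7.21 and 6.70 in WT arrays. Every Runx3-/- value lay above every WT value, with WT 2 the highest of the WT mice and all 6 above background. Means were 8.32 ± 0.15 in Runx3-/- and 6.85 ± 0.31 in WT DC (SD, n = 3 each), a rise of 2.76-fold. The log2 change was 1.46 (SE 0.17, 95% interval 1.05 to 1.88; limma, adjusted p = 0.0234), and the within-litter differences were 1.84, 1.07 and 1.48. Over 14 alternative settings the log2 change lay between 1.36 and 1.64, and the limma adjusted p between 0.0174 and 0.196, at or under 0.05 in 6 of them. With the litter as a block the adjusted p was 0.0892 (limma), without WT 1 it was 0.113 and without both mice of litter 3 it was 0.196. In these bulk samples more cells with Maf and more Maf RNA per cell cannot be told apart.

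The genes whose values followed Maf most closely over the 6 arrays were Il1rn, the interleukin 1 receptor antagonist, Pla2g7, a secreted phospholipase, and Pilra, an inhibitory myeloid receptor. Their Pearson correlations with Maf were 0.998, 0.998 and 0.997, and their log2 changes were 1.66, 0.42 and 1.34. Since both genotypes enter these 6 points, a gene that differs cleanly between them correlates with Maf by that alone, and 152 of 9921 other tested genes were above 0.95.

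Markers of red pulp macrophages, the iron-recycling macrophages of the spleen, moved with Maf. Of 14, 13 were tested and 8 rose (0 fell), with a median of 1.31. Of all 9922 tested genes 135 rose and 90 fell, with a median of -0.03. The genotypes did not overlap for 11 of the 13, which is 84.6%, against 28.5% of all tested genes. The mean of the 14 per array was 9.84 to 10.07 in Runx3-/- and 8.58 to 9.10 in WT arrays. C1qa, C1qb and C1qc, which encode the 3 chains of complement C1q, rose by 1.34, 1.31 and 1.41 (limma, adjusted p = 0.0140, 0.0284 and 0.0439). Values of C1qa were 9.95, 9.64 and 9.57 in Runx3-/- arrays, against 8.43, 8.46 and 8.25 in WT arrays, with no overlap. Cd5l, a secreted scavenger protein of tissue macrophages, was at least 1.32-fold higher, since all 3 WT values lay below background (limma, adjusted p = 0.0373). The others that rose were Spic, the transcription factor of these macrophages, Mertk and Axl, receptor kinases for apoptotic cells, and Adgre4, an adhesion receptor, by 1.40, 1.95, 1.30 and 1.72. With the litter as a block none of the 8 passed. Vcam1, Slc40a1 and Treml4 had changes of 1.39, 1.07 and 0.97 without overlap and did not pass (limma, adjusted p = 0.0674, 0.163 and 0.0905). Hmox1, a haem-degrading enzyme, had a change of 0.22 (limma, adjusted p = 0.597), and Adgre1, an adhesion receptor used to stain macrophages, had one of 0.01. Of the 14, Cd163 alone was below background in every array. Monocyte markers, of which 5 of 8 were tested and 0 called (limma; 5 at an unadjusted p of 0.05), had a mean of 9.93 to 10.17 in Runx3-/- and 9.10 to 9.41 in WT arrays. The part of macrophages or monocytes in the Maf result was not tested.

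**Figure D2:**
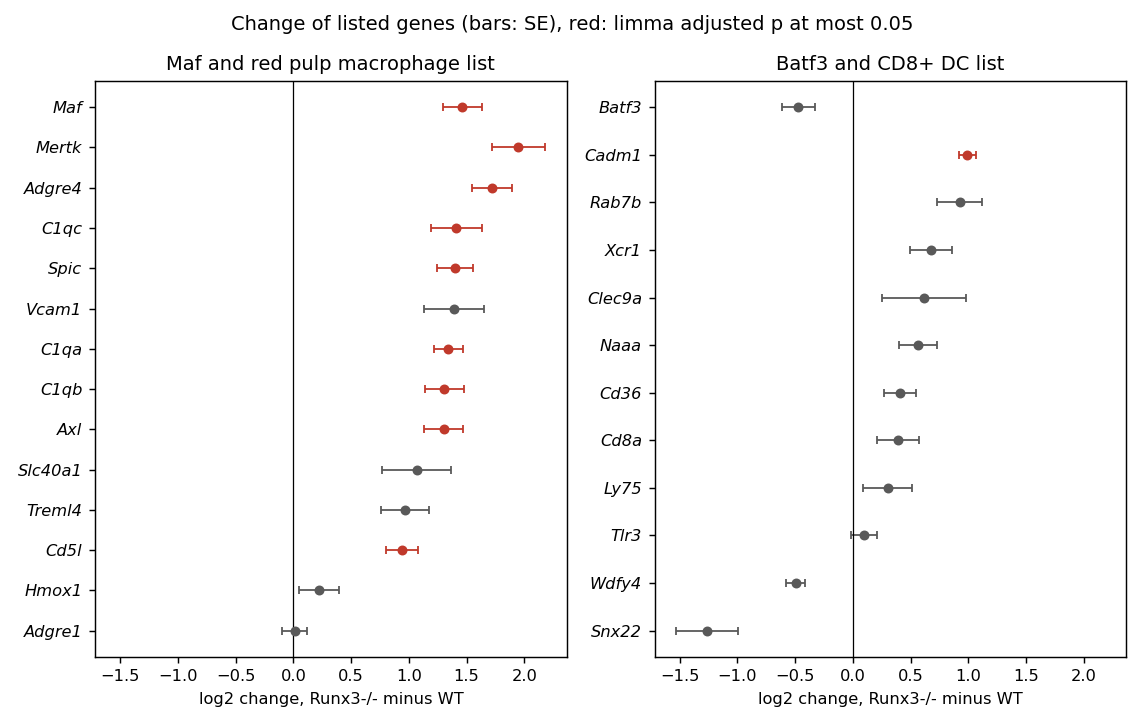
Log2 change with its SE (3 mice per genotype) for Maf with the tested red pulp macrophage markers, and for Batf3 with the tested genes of the CD8+ DC list; red marks a limma adjusted p of at most 0.05. On the Maf side 8 markers are red and Adgre1 sits at 0.01, while on the Batf3 side Cadm1 alone is red and Batf3 lies at -0.47. The fit held genotype alone, and with the litter as a block no probe set passed.

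None of the 4 AP-1 factors proper passed the test of genotype, and their spread was wide among WT mice. Among Runx3-/- mice, 2.14% of tested probe sets had an SD at least that of Fos. For Jun, Junb and Fosl2 this share was 31.4% to 40.8%. Fos (probe set 10397346), the immediate early partner of Jun, had values of 9.56, 9.17 and 8.37 in Runx3-/- arrays, against 9.73, 9.05 and 6.65 in WT arrays. The WT values spanned 8.46-fold and the Runx3-/- values 2.28-fold, and both genotypes had litter 3 at the bottom. Means were 9.03 ± 0.61 in Runx3-/- and 8.47 ± 1.62 in WT DC (SD, n = 3 each). The log2 change of 0.56 (SE 0.80) had a 95% interval of -1.38 to 2.50 (limma, adjusted p = 0.789), so the interval held large changes in either direction. It was -0.35 without WT 3. Few probe sets were as uneven among WT mice: 0.141% had an SD at least as large.

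Jun (probe set 10514466), the main AP-1 partner of Fos and Batf, had values of 10.29, 10.39 and 10.09 in Runx3-/- arrays, against 11.10, 10.42 and 9.34 in WT arrays. The Runx3-/- mice lay together inside the WT range, and the difference within litters ran from -0.81 in litter 1 through -0.03 in litter 2 to 0.75 in litter 3. Means were 10.26 ± 0.16 in Runx3-/- and 10.29 ± 0.89 in WT DC (SD, n = 3 each), with a log2 change of -0.03 (SE 0.42, 95% interval -1.05 to 0.99; limma, adjusted p = 0.983). A WT SD of this size or more was seen for 0.559% of tested probe sets.

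Junb (probe set 10580282), a Jun protein that can hold back Jun-driven growth genes, had values of 8.36, 8.58 and 8.26 in Runx3-/- arrays, against 9.04, 8.56 and 8.25 in WT arrays. Only WT 1 stood apart, above the other 5. Its log2 change was -0.21 (SE 0.21, 95% interval -0.72 to 0.29; limma, adjusted p = 0.674). Fosl2 (probe set 10520862), the Fos-related antigen Fra-2, had values of 7.81, 7.72 and 7.45 in Runx3-/- arrays, against 7.05, 7.74 and 7.14 in WT arrays. Litters 1 and 3 had the Runx3-/- mouse higher, by 0.76 and 0.31, and litter 2 did not, at -0.02. The log2 change was 0.35 (SE 0.20, 95% interval -0.14 to 0.84; limma, adjusted p = 0.463).

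Most AP-1 factors were low in litter 3. Fosl2 had litter means of 7.43, 7.73 and 7.29 for litters 1, 2 and 3. Among WT mice its lowest value was that of WT 1 (7.05), not WT 3 (7.14). The litter 3 mouse was the lowest of its genotype in both genotypes for 5 of the 8 tested factors (Batf3, Nfil3, Jun, Junb and Fos), against 18% of all tested probe sets, and for 4 of 4 further AP-1 factors (Jund, Fosb, Jdp2 and Atf3). Litter means for litters 1, 2 and 3 were 9.64, 9.11 and 7.51 for Fos. They were 9.17, 8.65 and 7.11 for Fosb, the nearest relative of Fos, and 10.70, 10.40 and 9.71 for Jun. Batf showed no such order, with 7.56, 7.44 and 7.46, although it lies close to Fos: Fos, Jdp2 and Batf follow each other on chromosome 12 in the RefSeq table. Of the 20 tested immediate early genes that are not AP-1 factors, 8 were lowest in litter 3 in this way. Dusp1, a phosphatase that switches off MAP kinases, had litter means of 12.45, 12.36 and 11.04, and Egr1, a zinc finger factor, had 9.30, 9.28 and 8.28. An F test of the litter term, chosen after these values had been seen, reached an unadjusted p of 0.05 for 9.96% of tested probe sets and an adjusted p of 0.05 for 0 of them (limma), the lowest for the 8 factors being 0.489 for Nfil3. How the cells of each litter were handled is not given in the sources used here, and litter, sort and handling cannot be told apart.

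**Figure D3:**
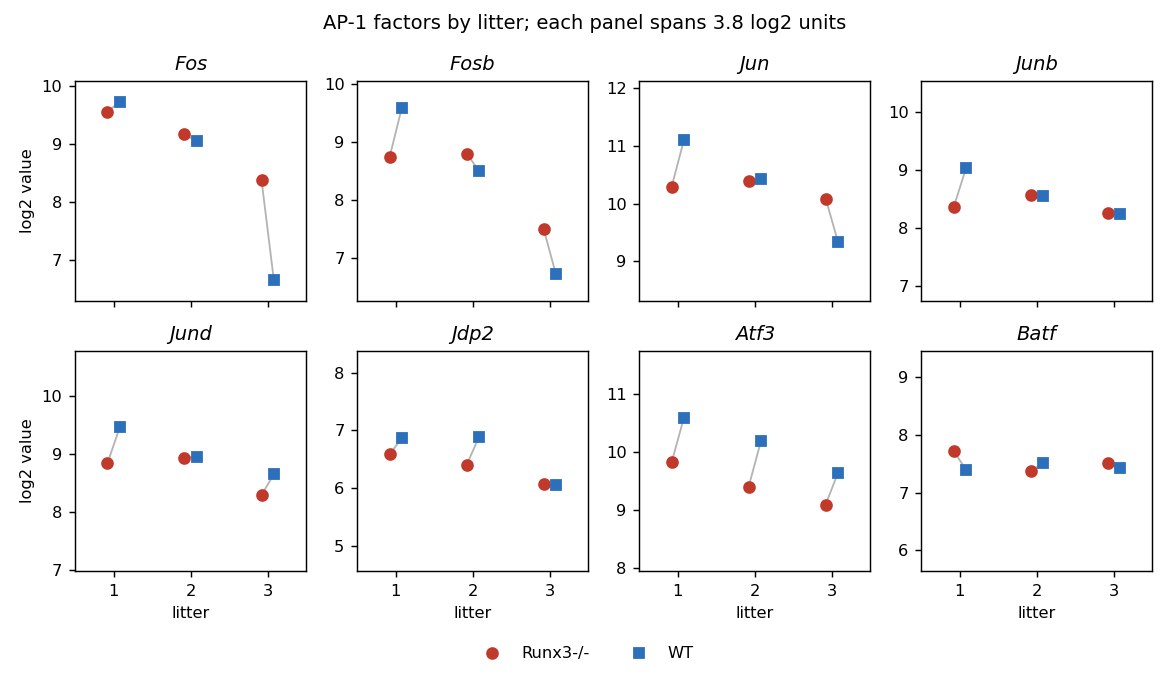
Log2 signal of 7 AP-1 factors and Batf in the Runx3-/- (red circle, left) and WT (blue square, right) mouse of each litter, joined by a line; every panel spans the same height, and its place on the axis follows the gene. Fos and Fosb drop in litter 3 in both genotypes, from litter means of 9.11 and 8.65 in litter 2 to 7.51 and 7.11, Atf3 is lower in the Runx3-/- mouse of every litter, and Batf is flat.

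Nfil3 (probe set 10409278) lay at the edge of detection. Its values were 6.65, 6.25 and 6.03 in Runx3-/- arrays, against 6.19, 5.97 and 5.86 in WT arrays, and Runx3-/- 1 alone was above background. The Runx3-/- mouse was the higher one in each litter, by 0.46, 0.28 and 0.17, while the genotypes overlapped. The log2 change of 0.31 (SE 0.17, 95% interval -0.12 to 0.73) did not pass with genotype alone (limma, adjusted p = 0.460) or with the litter as a block (limma, adjusted p = 0.205), and no fold is given. Nfil3 and the PAR factors Dbp, Hlf and Tef compete for the same D-box sites in the circadian clock, where Nfil3 represses and the PAR factors activate. Dbp and Tef had log2 changes of -0.36 and -0.15 (limma, adjusted p = 0.419 and 0.551), and Hlf was below background. Of 16 clock genes 13 were tested and 0 passed (limma; 5 at an unadjusted p of 0.05), with a median of -0.15. The 3 with the smallest p were Rora, an activator of clock genes, at 0.33, Nr1d1, which encodes the repressor REV-ERB alpha, at 0.49, and the period gene Per2, at -0.27 (limma, adjusted p = 0.175, 0.221 and 0.232). All 3 WT values of Rora and all 3 Runx3-/- values of Per2 lay below background. The Runx3-/- mean of Rora was thus at least 1.18-fold higher, without passing, and no fold is given for Per2.

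The other bZIP factors of the mouse were then counted. Of 43 on the array in 6 groups, 28 were tested and 0 passed the adjusted threshold in either direction (limma), with 4 at an unadjusted p of 0.05. The methods' analysis of variance on the same values also called 0 of them, with 3 at an unadjusted p of 0.05. Their log2 changes had a median of -0.06, 10 positive and 18 negative, and 4 of 28 did not overlap between genotypes, which is 14.3%, against 28.5% of all tested genes.

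Bach2 (probe set 10503695), a repressor that binds Maf recognition elements with small Maf proteins, came nearest to the threshold. It met the background filter through its Runx3-/- arrays alone, the group where it was higher. Its values were 6.67, 6.89 and 6.84 in Runx3-/- arrays, against 6.30, 6.17 and 6.33 in WT arrays. All 3 WT mice were below background and all 3 Runx3-/- mice above it, so the Runx3-/- mean was at least 1.23-fold higher. The log2 change was 0.53 (SE 0.09; limma, adjusted p = 0.0510), and over 14 alternatives the adjusted p was 0.0321 to 0.251, at or under 0.05 in 3. Nfe2l2, which encodes the oxidative stress factor NRF2, had a change of 0.50 (limma, adjusted p = 0.126), with values of 11.91, 11.49 and 11.73 in Runx3-/- arrays, against 11.22, 11.10 and 11.30 in WT arrays, also without overlap. Nfe2l1, its relative in proteasome control, had a change of -0.11 (limma, adjusted p = 0.499). Of the small Maf proteins that pair with these factors, Mafk was at -0.22 (limma, adjusted p = 0.226) and Mafg at -0.07 (limma, adjusted p = 0.675).

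Atf3 (probe set 10361091), a stress-induced partner of Jun that lies next but one to Batf3 on chromosome 1, had values of 9.82, 9.40 and 9.09 in Runx3-/- arrays, against 10.60, 10.19 and 9.64 in WT arrays. The genotypes overlapped, yet the Runx3-/- mouse was lower in every litter. The log2 change was -0.71 (SE 0.28; limma, adjusted p = 0.306), and with the litter as a block the SE was 0.08 and the adjusted p 0.0892. Atf3 was the only tested bZIP factor listed here besides Maf to reach both a 1.5-fold change and an unadjusted limma p of 0.05, but by the methods' analysis of variance its unadjusted p was 0.112. In limma 3.95% of tested probe sets reached both, 2.01% higher and 1.94% lower. Of the 9922 tested genes, 303 reached both as higher and 161 as lower. Jund, a Jun protein present in resting cells, had a change of -0.33 and Jdp2, a repressor of AP-1, one of -0.25 (limma, adjusted p = 0.589 and 0.694). In the ATF/CREB group, whose members act in cyclic AMP and stress responses, 13 of 18 were tested, and the smallest p values were those of Atf6b, Creb3 and Crebzf at -0.18, -0.27 and -0.14 (limma, adjusted p = 0.349, 0.421 and 0.621). In the C/EBP group, known from myeloid development, Cebpa had a change of 0.26 and Ddit3 one of -0.13 (limma, adjusted p = 0.488 and 0.551), and Cebpb, Cebpd and Cebpe were below background.

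**Figure D4:**
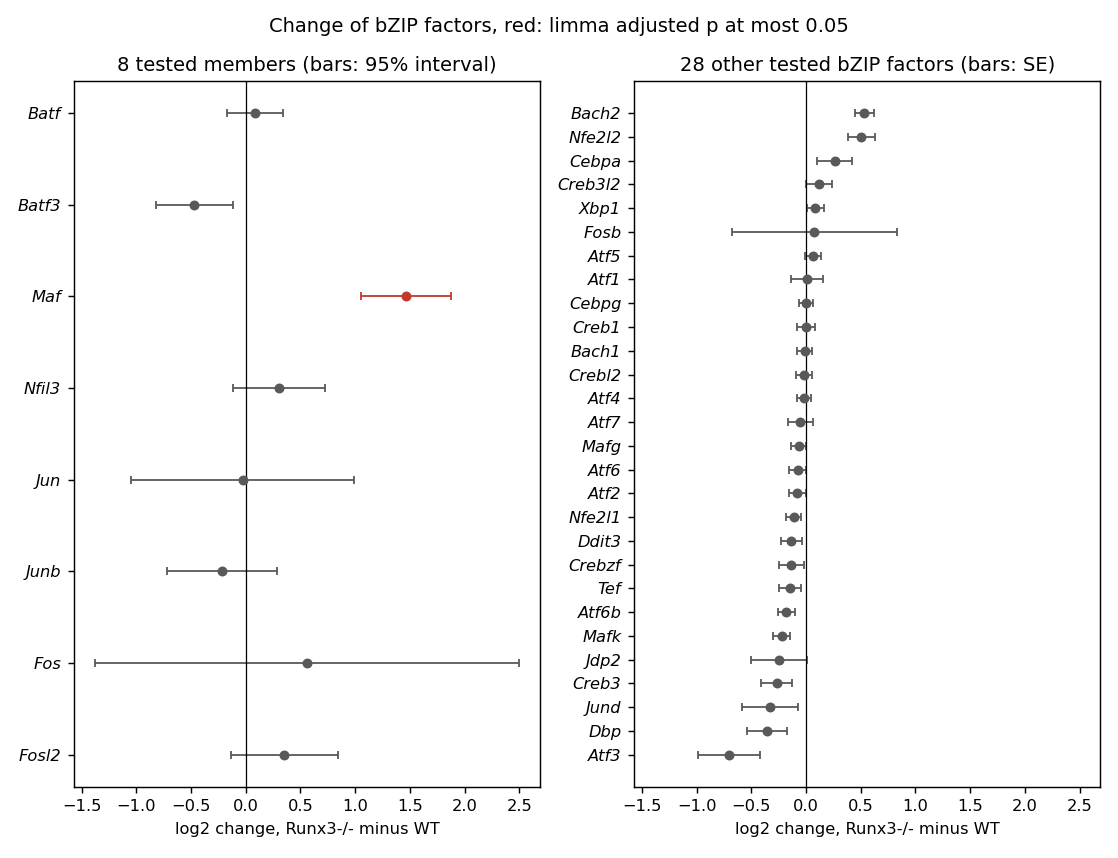
Log2 change, Runx3-/- minus WT, of the 8 tested factors (left, with 95% intervals) and of 28 other tested bZIP factors (right, with SE), from 3 mice per genotype; red marks a limma adjusted p of at most 0.05. Maf at 1.46 is the single red point, and the widest intervals are those of Fos on the left and of Fosb on the right. The fit held genotype alone, and with the litter as a block Maf did not pass.

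Genes upstream of AP-1 and genes induced with it gave few calls. Of 15 MAP kinase genes 11 were tested and 0 passed (limma; 2 at an unadjusted p of 0.05), with a median of -0.11. Those were Map2k6, an activator of p38, at -0.42, and Mapk8, which encodes the Jun kinase JNK1, at 0.30 (limma, adjusted p = 0.193 and 0.232). Of 26 immediate early genes 22 were tested and Myc, a growth regulator, was the only one that passed. Myc had values of 9.89, 9.59 and 9.50 in Runx3-/- arrays, against 10.58, 10.42 and 10.72 in WT arrays, and fell by 0.91 (limma, adjusted p = 0.0339; 0.104 with the litter as a block). Unlike Fos, it had no low litter, with litter means of 10.23, 10.01 and 10.11. The median of the 22 was 0.03, with 11 positive and 11 negative.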

How the data were processed

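Log2 signals of 6 arrays, 1 per mouse, were compared between 3 Runx3-/- and 3 WT mice. The authors summarised probe sets in Partek by RMA with GC correction and deposited log2 values, and the submitters' processing notes name the mm9 build. RMA puts arrays on a common distribution, which hides a change shared by most genes and understates folds near background. Probe set identifiers match a gene-level array, although an exon array is named in the methods. Of 35399 probe sets, 21789 had 1 symbol, 1621 several and 11989 none, and 0 symbols changed on checking against RefSeq. The deposited log2 values were fitted with genotype alone in limma 3.58.1 (lmFit, eBayes, two-sided, R 4.3.3), tested on simulated data first. Probe sets of at least 6.5, the methods' background, in at least 1 array were tested (19149), with Benjamini-Hochberg adjustment over all. A gene with more than 1 probe set was read from the brightest. A gene below 6.5 in all arrays of 1 genotype has a lower bound only, taken against 6.5 where that bound is above 1. Such a bound compares means and carries no sampling error. A tested gene of this kind entered the test through the other genotype alone. An exact permutation test of 3 against 3 cannot give a two-sided p under 0.1, so none was used. The number of arrays limits the precision.

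The factors and the gene lists were chosen with earlier results of these data known. The genes named are all 9 factors, Runx3, of each list those past the adjusted threshold or otherwise up to 3 with the smallest p, and the 3 genes most like Maf. Others were named after their values were seen, to show a litter, a marker or a neighbour. Marker lists of T, NK, B, neutrophil and erythroid cells were also read. Of their genes on the array, 4 of 5 (T), 5 of 6 (NK), 2 of 5 (B), 5 of 7 (neutrophil) and 2 of 3 (erythroid) were below background in all arrays. Cd3d, Ncr1, Pax5, S100a8 and Klf1 were among these. Il7r (T cell) was well above background, with a mean of 8.74 in Runx3-/- and 8.57 in WT DC, and Ngp (neutrophil) reached 7.13 in Runx3-/- 1 alone. In these lists 0 genes passed. The tested genes of these lists with the smallest p were Klrk1 (NK), Csf3r (neutrophil) and Cd79b (B cell) (limma, adjusted p = 0.122, 0.153 and 0.0772). None of them overlapped between genotypes. The Runx3-/- mean of Klrk1 was at least 2.17-fold higher, and the log2 changes of Csf3r and Cd79b were 1.07 and 0.58. Ms4a1 (B cell) was at 8.56 in Runx3-/- and 7.98 in WT DC. The litter numbers come from the labels, and deviations of littermates from their genotype means correlated at 0.158, 0.102 and 0.246 over probe sets, against -0.230 to 0.103 for mice of different litters. The litter was taken to pair the mice in the within-litter differences and in the alternative fit with a litter block. The main fit, with genotype alone, did not use it. This pairing was used because the labels give it and each correlation was over 0.1. That of litter 2 was no higher than the highest between litters. The alternatives were no filter, a filter in 3 arrays, quantile normalization, median centring, the litter as a block, the methods' analysis of variance, a variance trend, each array left out and, added after the values had been seen, both mice of litter 3 left out.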

Additional observations from a re-analysis of the deposited data

How the results depend on the processing

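With the litter as a replicate block limma called 0 probe sets at an adjusted p of 0.05 (3430 at an unadjusted p of 0.05), against 298 with genotype alone, so 0 of the factors, 0 IRF partners, 0 CD8+ DC genes and 0 immediate early genes passed. The 14 listed genes called with genotype alone, Runx3 among them, had blocked adjusted p of 0.0609 to 0.106. Without both mice of litter 3 (added after the values had been seen) these counts were also 0. The methods' analysis of variance called 6 probe sets and 0 in each list. Leaving out 1 array left 0 to 205 probe sets (0 when WT 1 was dropped, 1 for Runx3-/- 3, 40 for Runx3-/- 1, 75 for WT 3, 137 for WT 2 and 205 for Runx3-/- 2), 0 to 1 factors (Maf, kept only without WT 2), 0 to 1 IRF partners, 0 to 2 CD8+ DC genes and 0 to 0 immediate early genes. With fewer arrays the test had less precision. No filter left 1 IRF partner. A filter in 3 arrays gave 1 CNC or Bach factor and 2 CD8+ DC genes, as did quantile normalization. Median centring gave 1 CNC or Bach factor and 1 IRF partner, and a variance trend 2 CD8+ DC genes. The study's cut-offs, applied to unadjusted limma p and not to the analysis of variance of its methods, passed 757 probe sets, 1 further AP-1 factor, 4 CD8+ DC genes and 3 immediate early genes. The sign of Jun, close to 0, turned with median centring (0.011) and when Runx3-/- 3 (0.06), WT 1 (0.38) or WT 2 (0.04) was dropped, and over single arrays dropped its log2 change ran from -0.50 to 0.38. That of Batf turned when Runx3-/- 1 was dropped (-0.0076 to 0.17 over arrays), and that of Fos with WT 3 (-0.35 to 1.19 over arrays) or litter 3 (-0.024) dropped. Maf, Batf3, Junb, Fosl2 and Nfil3 kept their sign in every alternative that tested them. The cause of these shifts was not tested.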
